A study of Mus musculus with 6 samples.

Results

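The 36 genes described here encode the products of maturing red cells and of platelets: the adult globins and the chaperone of alpha globin, 8 enzymes of heme synthesis from Alas1 and Alas2 to Fech, proteins of iron supply, 5 transcriptional regulators, the erythropoietin receptor, red cell membrane and blood group proteins, 2 carbonic anhydrases and 4 platelet proteins. They were chosen by function, by matching their symbols to the deposited gene table of 23608 genes. The table held 35 of them, and 32 had enough counts to be among the 11614 genes tested. Ahsp, the alpha globin chaperone, was not analysed here, and the platelet genes Pf4, Gp1bb and Gp9 had too few counts to be tested.

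The samples came from a mouse model of acute myeloid leukemia in which the oncogene is AE9a, a shortened version of the fusion protein AML1-ETO. Fetal liver cells of the genotype Usp18+/f ER-Cre received AE9a and GFP from a retrovirus and were transplanted, and the recipients were treated once they were ill. Usp18 encodes the protease that removes ISG15 from proteins and limits type I interferon signaling. Splenic GFP+ Lin- c-Kit+ cells were sorted when 3 days had passed since injections began, and their RNA was measured by RNA-seq, with 3 mice in each of 2 groups. The controls received oil and were Usp18+/f, so they too carried the floxed allele, the Cre transgene and AE9a. The other group received tamoxifen, which activates the Cre and is meant to turn Usp18+/f into Usp18+/Δ. The effect of the drug and that of the deletion cannot be told apart in this comparison. The methods give an age of 8 to 12 weeks and both sexes for the animals of the study as a whole, without listing them for each recipient.

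Libraries are named by the numbers in the gene table, oil 1, 3 and 4 and tamoxifen 1, 2 and 4. They held 17118964 to 20741399 counts each, and the 35 genes took 1.03% to 1.48% of them. Expression is given as CPM, a gene's counts brought to a common library size over the tested genes with TMM scaling. Usp18, the targeted gene, was at 9.12, 10.9 and 11.2 CPM in the oil libraries and at 15.2, 28 and 19.5 CPM in the libraries labelled tamoxifen. This difference was against the label (log2 fold change 0.998, SE 0.229, adjusted p = 0.0739 with edgeR and 0.00199 with DESeq2), and the groups did not overlap. An intact allele is meant to remain in Usp18+/Δ cells, and the cause of the higher values was not tested. The libraries are therefore called by their labels, and every direction below rests on the labels. The library labelled tamoxifen 4 stood apart from its group. Its log2 CPM over all tested genes correlated at a mean of 0.983 with the oil libraries and 0.972 with the rest of its group. Counts are given with and without it. Tamoxifen 4 was singled out from these same data, so fits without it give no independent support for a difference.

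Red cell precursors make hemoglobin from alpha and beta globin chains and heme. Heme is built stepwise from glycine and succinyl-CoA, begun by Alas2 in erythroid cells or by Alas1 elsewhere and completed by Fech, which inserts iron. Gata1 and Klf1 drive most of this program, binding GATA and CACCC motifs, and Gata1 with Zfpm1 also acts in megakaryocytes, the cells that shed platelets. AML1-ETO is known to interfere with erythroid differentiation. Because whole sorted populations were measured, fewer cells of a type and less RNA per cell cannot be told apart in any value below.

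The RNA of the sorted spleen cells held much of globins and carbonic anhydrases and hardly any of Pf4, Gp1bb and Gp9. Which cells this RNA came from was not tested. Ranked by CPM per kilobase of exon among 11409 genes in the oil libraries, Hba-a2 stood at rank 3 (2206 CPM per kilobase), Hba-a1 at rank 4 (1840), the carbonic anhydrase gene Car1 at rank 8 (1461), and Hbb-bs at rank 11 (1282). Car2 was at rank 40 and Klf1 at rank 107, so that 6 of the 32 genes were in the top 1% and 18 in the top 10%. The median of all ranked genes was 8.87 CPM per kilobase, and 28 of the 32 genes were above it. At the other end, Alas1 stood at rank 8848 (2.27) against rank 2144 for Alas2 (27.7 CPM per kilobase), and Vwf at rank 10058 (0.762).

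**Figure D1:**
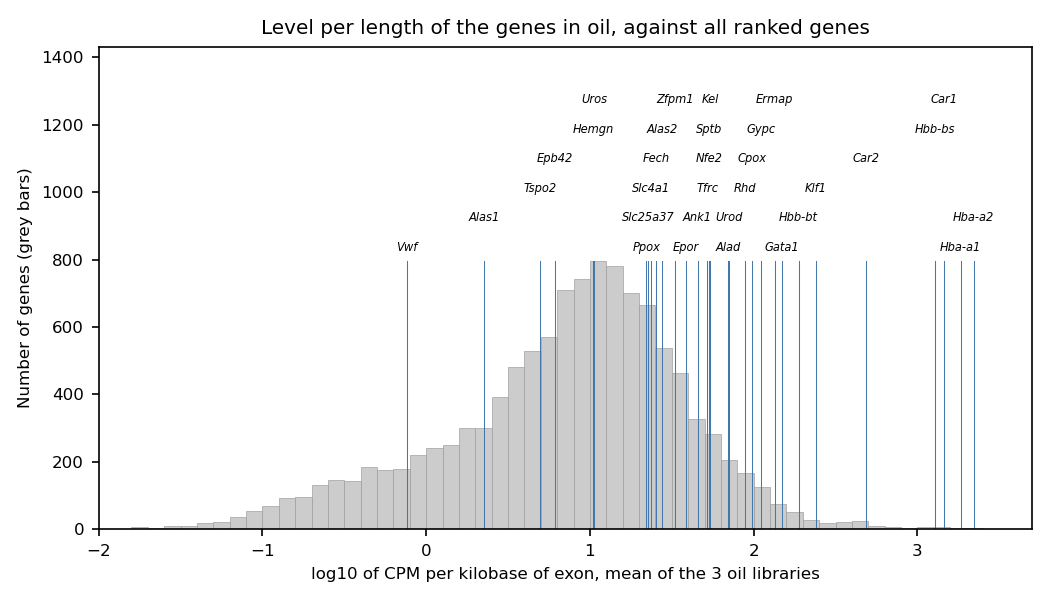
Histogram of log10 CPM per kilobase of exon (mean of the 3 oil libraries) over 11409 genes in grey, with a line and a name for each of the 32 tested genes. Hba-a1, Hba-a2, Car1 and Hbb-bs lie at the upper end, Alas1 below the median of the genes, and Vwf further down.

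Across the 32 genes, 20 were lower and 12 higher in the libraries labelled tamoxifen, with a median log2 fold change (tamoxifen minus oil) of -0.18 against 0.00012 over all tested genes. Rhd was the 1 gene that passed an adjusted p of 0.05 (edgeR quasi-likelihood test, Benjamini-Hochberg adjustment over all tested genes), and it was lower, where 0.267% of all tested genes were called lower and 1.75% higher. None of the 32 was called higher, with 2 (Zfpm1 and Vwf) at an unadjusted p under 0.05 and none with DESeq2 or limma-voom. At an unadjusted p under 0.05, 12 were lower, where 7.99% of all tested genes were lower and 12.6% higher. DESeq2 called 8 lower, Uros, Urod, Cpox, Klf1, Epor, Hemgn, Rhd and Car2, where it called 1.99% of all genes lower and 6.14% higher. In 12 of the 32 genes every library labelled tamoxifen was below every oil library (11.8% of all tested genes), in 2, Car1 and Vwf, every one was above (13.3%), and in 18 the groups overlapped.

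Leaving out tamoxifen 4, the edgeR calls rose to 11 lower (17.1% of all genes tested then) and 8 higher (19.2%). The 11 were Alad, Uros, Urod, Cpox, Tfrc, Gata1, Klf1, Epor, Hemgn, Rhd and Car2, and the 8 were the 4 globins, Alas2, Nfe2, Zfpm1 and Tspo2. These are 34.4% and 25% of the 32 genes.

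**Figure D2:**
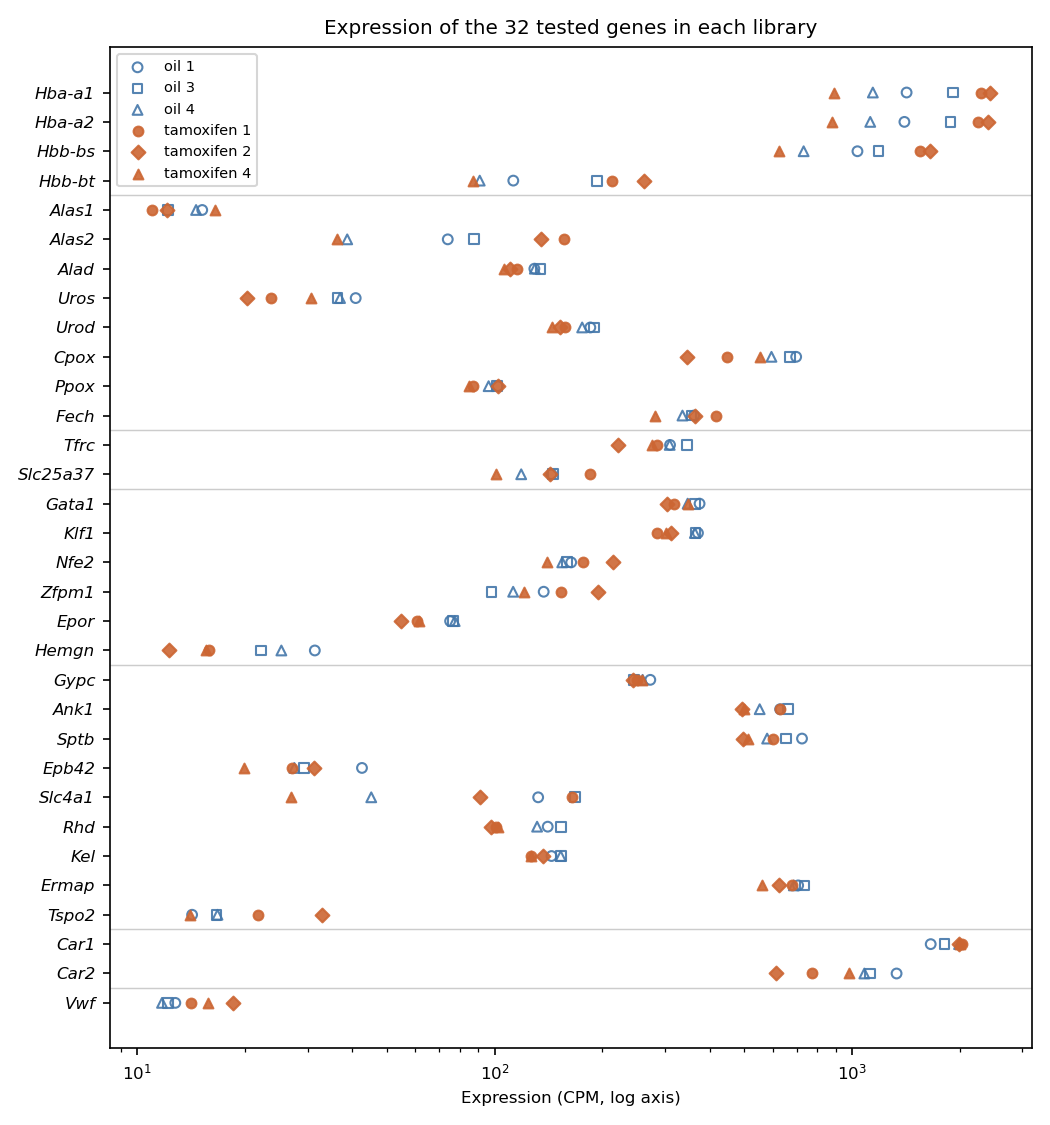
CPM on a log axis of the 32 tested genes in each of the 6 libraries (open blue, oil; filled orange, labelled tamoxifen), ordered by role. The filled points of Rhd, Klf1, Epor and Hemgn lie to the left of all open points, whereas those of the globins and Alas2 spread to both sides.

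**Figure D3:**
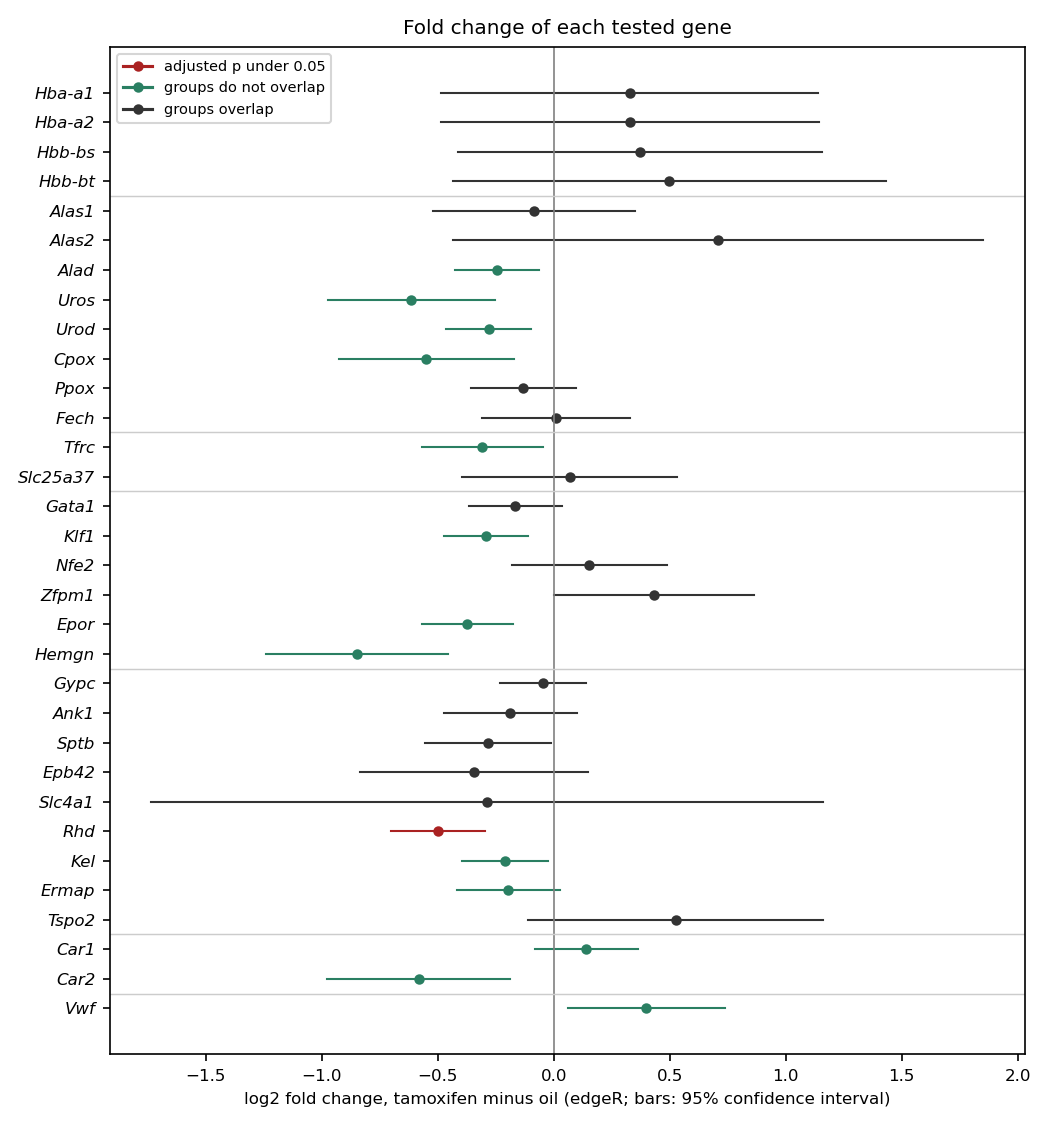
log2 fold change (tamoxifen minus oil) of each tested gene with its 95% confidence interval from edgeR. Rhd (red) is the 1 gene past an adjusted p of 0.05, green marks genes whose groups do not overlap, and the intervals of the globins, Alas2 and Slc4a1 are the widest.

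The adult globin genes varied more between mice of a group than between the groups. Hba-a1 (chr11:32283511-32284465, plus strand) was at 1422, 1916 and 1144 CPM in oil and at 2294, 2435 and 893 CPM in the libraries labelled tamoxifen. Hba-a2 (chr11:32296489-32297298, plus strand) was at 1402, 1888 and 1125 CPM in oil and at 2258, 2403 and 879 CPM in tamoxifen. The tamoxifen group thus held the 2 highest libraries and the lowest, and the groups overlapped. Hbb-bs (chr7:103826534-103828096, minus strand) was at 1036, 1186 and 732 CPM in oil against 1546, 1651 and 624 CPM, and Hbb-bt (chr7:103812524-103813996, minus strand) at 113, 194 and 90.9 CPM against 213, 262 and 86.7 CPM. Both beta globin genes kept the order of the alpha globin genes, with tamoxifen 4 lowest and tamoxifen 2 highest.

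The 4 log2 fold changes lay between 0.33 and 0.50, with adjusted p from 0.486 to 0.601 (edgeR). The interval of Hba-a1 reached from -0.49 to 1.14, which includes changes of either sign. Without tamoxifen 4 the value of Hba-a1 was 0.66 (adjusted p = 0.0117), that of Hbb-bs 0.70 (adjusted p = 0.00701) and that of Hbb-bt 0.84 (adjusted p = 0.0244). Summed over the 4 genes, globin counts made up 0.395%, 0.516% and 0.31% of the oil libraries and 0.639%, 0.668% and 0.249% of the libraries labelled tamoxifen.

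The globin copies are not independent measurements. The coding sequences of Hba-a1 and Hba-a2 are both 429 bases long and differ at 1 base, and those of Hbb-bs and Hbb-bt are both 444 bases long and also differ at 1 base. The transcripts of each pair share an unbroken run of 415 and 430 bases, so reads could be split between copies by the counting. The ratio of Hba-a1 to Hba-a2 counts stayed between 1.01 and 1.02 in all 6 libraries, and the split within each pair is uncertain.

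The enzymes of heme synthesis did not move together. Of the 8, 4 were lower in every library labelled tamoxifen than in any oil library (Alad, Uros, Urod and Cpox), against 11.8% of all tested genes. None passed the edgeR threshold (smallest adjusted p = 0.0914). At an unadjusted edgeR p under 0.05, 4 were lower and none higher (7.99% and 12.6% of all tested genes). With DESeq2, 3 were lower and none higher (1.99% and 6.14% of all). The median log2 fold change of the 8 was -0.19.

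Uros (uroporphyrinogen III synthase, chr7:133686243-133710072, minus strand) was at 40.9, 36.4 and 36.9 CPM in oil and at 23.6, 20.3 and 30.7 CPM in the libraries labelled tamoxifen, or 38.1 ± 2.45 against 24.9 ± 5.29 (SD, n = 3 each). The groups did not overlap, the log2 fold change was -0.61 (SE 0.157, 95% interval -0.97 to -0.25), and the adjusted p was 0.0914 with edgeR and 0.0119 with DESeq2. Cpox (coproporphyrinogen oxidase, chr16:58670292-58717636, plus strand) was at 698, 672 and 595 CPM in oil against 448, 345 and 551 CPM. Here too tamoxifen 4 was the library of its group nearest to oil, and the groups did not overlap. The log2 fold change of Cpox was -0.55 (SE 0.164), with an adjusted p of 0.133 with edgeR and 0.0279 with DESeq2. Without tamoxifen 4, both passed the edgeR threshold (Uros -0.79, adjusted p = 0.000792, and Cpox -0.72, adjusted p = 0.00121).

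Urod, which acts between Uros and Cpox, was at 185, 190.0 and 176 CPM in oil against 157, 152 and 145 CPM, a difference of -0.28 (SE 0.0798, adjusted p = 0.121 with edgeR and 0.0334 with DESeq2). Alad, which joins the products of Alas1 or Alas2, was at 129, 134 and 130 CPM against 116, 110 and 106 CPM, or -0.24 (SE 0.0786, adjusted p = 0.156 with edgeR). In both genes the libraries of a group lay close together and the groups did not overlap. Ppox and Fech, the last enzymes, overlapped between groups, with log2 fold changes of -0.13 (adjusted p = 0.451) and 0.01 (adjusted p = 0.966, 95% interval -0.31 to 0.33).

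The first step was represented mostly by RNA, per kilobase, of Alas2, the erythroid aminolevulinate synthase (chrX:150547375-150570638, plus strand). Its values were 74, 87.4 and 38.7 CPM in oil and 156, 135 and 36.2 CPM in the libraries labelled tamoxifen. As for the globins, tamoxifen 1 and 2 were the highest libraries and tamoxifen 4 the lowest. The log2 fold change was 0.71 (SE 0.496, 95% interval -0.43 to 1.85, adjusted p = 0.427), and without tamoxifen 4 it was 1.12 (adjusted p = 0.00673). Alas1, the form of other tissues, was at 15.2, 12.2 and 14.6 CPM in oil against 11, 12.1 and 16.5 CPM, with overlapping groups (-0.08, adjusted p = 0.81).

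Of the iron supply genes, Tfrc, the transferrin receptor (chr16:32608920-32632794, plus strand), was at 310, 346 and 309 CPM in oil and at 284, 221 and 275 CPM in the libraries labelled tamoxifen. The groups did not overlap, and the difference of -0.31 (SE 0.114) had an adjusted p of 0.203 with edgeR and 0.138 with DESeq2. Slc25a37, which carries iron into mitochondria, was at 144, 145 and 119 CPM against 185, 143 and 101 CPM, with the groups overlapping (0.07, 95% interval -0.39 to 0.53, adjusted p = 0.857).

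Among the regulators, Hemgn, Klf1 and Epor were lower in every library labelled tamoxifen (11.8% of all tested genes), and Gata1, Nfe2 and Zfpm1 overlapped. None of the 6 passed the edgeR threshold. At an unadjusted edgeR p under 0.05, 3 were lower and 1, Zfpm1, higher (7.99% and 12.6% of all tested genes). With DESeq2, Hemgn, Klf1 and Epor were lower and none higher (1.99% and 6.14% of all). The median log2 fold change of the 6 was -0.23.

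Hemgn encodes hemogen, a nuclear protein of blood progenitors and erythroid cells (chr4:46393989-46413506, minus strand). Its values were 31.4, 22.2 and 25.3 CPM in oil and 15.9, 12.3 and 15.6 CPM in the libraries labelled tamoxifen, or 26.3 ± 4.68 against 14.6 ± 2.01 (SD, n = 3 each). The log2 fold change was -0.85 (SE 0.171, 95% interval -1.24 to -0.46), 1.8-fold higher in oil and the largest of the 32 genes in size. The adjusted p was 0.0506 with edgeR and 0.00056 with DESeq2, and it was under 0.05 in 4 of the 14 alternatives.

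Klf1, the CACCC-binding activator of beta globin (chr8:84901928-84905291, plus strand), was at 371, 365 and 363 CPM in oil and at 285, 312 and 301 CPM in the libraries labelled tamoxifen. The 3 oil libraries were nearly equal and all above the other group. The difference of -0.29 (SE 0.0784, 1.22-fold higher in oil) had an adjusted p of 0.105 with edgeR and 0.00991 with DESeq2. Epor, the erythropoietin receptor (chr9:21958897-21963506, minus strand), was at 75.1, 76.5 and 77.3 CPM against 60.8, 54.7 and 61.3 CPM. Its groups too were tight and apart, at -0.37 (SE 0.0851, 1.29-fold higher in oil), with an adjusted p of 0.0723 with edgeR and 0.00708 with DESeq2.

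Gata1 (chrX:7959260-7978071, minus strand), the regulator of both lineages, was at 375, 365 and 347 CPM in oil and at 317, 304 and 348 CPM in the libraries labelled tamoxifen. Tamoxifen 4 lay within the oil range, and the difference was -0.16 (SE 0.0868, 95% interval -0.36 to 0.04, adjusted p = 0.312). Zfpm1 (chr8:122282141-122337251, plus strand), the cofactor of Gata1, was at 137, 98.1 and 113 CPM against 153, 195 and 121 CPM. Its groups overlapped through tamoxifen 4, and the difference of 0.43 (SE 0.187) had an adjusted p of 0.24. Nfe2, a subunit of the NF-E2 factor of erythroid cells and megakaryocytes, lay between 140 and 215 CPM in the 6 libraries (0.15, adjusted p = 0.547).

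Of the 36 genes, 26 had a RefSeq promoter window, 250 bases before to 50 bases after the start that RefSeq gives. That start can differ from the end of the GENCODE interval printed for a gene, and the windows of Hemgn and Gata1 lie well inside those intervals. A GATA motif was counted as AGATAA or TGATAA or AGATAG or TGATAG, and a CACCC box as CCACACCC or CCACGCCC or CCCCACCC or CCCCGCCC, each on both strands. The forms CCACGCCC and CCCCGCCC do not hold the letters CACCC, but are counted under that name throughout. The GATA and CACCC letters do not overlap. The following 5 windows (GRCm38.p6) are shown because Rhd, Hemgn, Klf1 and Epor had the 4 smallest adjusted p values with DESeq2 and Alas2, like the globins, was highest in tamoxifen 1 and 2. Matches are in capitals.
Rhd (chr4:134864286-134864585, plus strand) has 1 GATA motif and 1 CACCC box on the reverse strand.
Rhd: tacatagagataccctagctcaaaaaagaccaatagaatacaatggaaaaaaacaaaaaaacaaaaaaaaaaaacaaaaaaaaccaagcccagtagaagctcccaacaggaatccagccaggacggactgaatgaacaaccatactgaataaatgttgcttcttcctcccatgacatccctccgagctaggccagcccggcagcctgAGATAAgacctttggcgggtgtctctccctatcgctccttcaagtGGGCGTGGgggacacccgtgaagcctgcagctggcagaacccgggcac
Hemgn (chr4:46404134-46404433, minus strand) has 2 GATA motifs.
Hemgn: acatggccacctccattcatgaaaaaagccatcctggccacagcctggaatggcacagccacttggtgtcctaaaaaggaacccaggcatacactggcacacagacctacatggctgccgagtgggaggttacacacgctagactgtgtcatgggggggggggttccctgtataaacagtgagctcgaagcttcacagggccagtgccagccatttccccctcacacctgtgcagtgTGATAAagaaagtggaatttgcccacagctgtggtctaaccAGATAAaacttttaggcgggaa
Klf1 (chr8:84901732-84902031, plus strand) has 1 GATA motif on the reverse strand.
Klf1: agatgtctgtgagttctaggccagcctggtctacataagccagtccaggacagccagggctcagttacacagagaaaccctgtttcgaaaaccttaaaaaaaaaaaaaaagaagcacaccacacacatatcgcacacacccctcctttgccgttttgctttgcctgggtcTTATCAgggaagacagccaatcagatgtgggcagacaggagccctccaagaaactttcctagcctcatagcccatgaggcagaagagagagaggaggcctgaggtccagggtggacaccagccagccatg
Epor (chr9:21963527-21963826, minus strand) has 1 GATA motif on the reverse strand and 2 CACCC boxes.
Epor: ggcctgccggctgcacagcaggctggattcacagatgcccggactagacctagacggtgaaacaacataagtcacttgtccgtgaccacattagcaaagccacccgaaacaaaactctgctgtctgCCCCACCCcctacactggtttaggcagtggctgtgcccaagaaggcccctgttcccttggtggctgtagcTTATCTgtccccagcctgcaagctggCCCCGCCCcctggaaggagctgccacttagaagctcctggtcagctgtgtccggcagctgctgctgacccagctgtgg
Alas2 (chrX:150547167-150547466, plus strand) has 1 GATA motif and 3 CACCC boxes, all on the reverse strand, of which a pair overlap each other.
Alas2: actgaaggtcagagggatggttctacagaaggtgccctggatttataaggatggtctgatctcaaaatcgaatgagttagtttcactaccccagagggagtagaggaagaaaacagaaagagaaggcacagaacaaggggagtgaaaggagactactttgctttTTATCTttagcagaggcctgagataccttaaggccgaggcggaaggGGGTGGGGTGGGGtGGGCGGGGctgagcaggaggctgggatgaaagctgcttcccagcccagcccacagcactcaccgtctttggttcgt

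A GATA motif was in 15 of the 26 windows (57.7%), against 30.2% of 27025 promoter windows of all genes. A CACCC box was in 13 (50%, against 30% of all), and both were in 6 (23.1%, against 5.47%). The windows of Hba-a1 and Hba-a2 are nearly the same sequence, so their shared GATA motif is counted for each copy. Among the genes lower in every library labelled tamoxifen, 11 had a window, and 7 of these held a GATA motif (63.6%), 5 a CACCC box (45.5%) and 2 both (18.2%). In the other 15 windows, the numbers were 8 (53.3%), 8 (53.3%) and 4 (26.7%). These other windows include those of Pf4, Gp1bb and Gp9, which were not tested. These are matches of letters in a short window and were not tested against the fold changes.

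The membrane and blood group genes held the 1 gene that fell past the threshold, Rhd. Of the 9, 8 had a negative log2 fold change, with a median of -0.21. Rhd, Kel and Ermap were lower in every library labelled tamoxifen than in any oil library, as were 11.8% of all tested genes. Rhd encodes the Rh protein of the red cell membrane (chr4:134864536-134896172, plus strand), and its promoter window is printed above. It was at 141, 154 and 131 CPM in oil and at 101, 97.8 and 102 CPM in the libraries labelled tamoxifen, or 142 ± 11.1 against 100.4 ± 2.42 (SD, n = 3 each). All 3 libraries labelled tamoxifen lay within a few CPM of each other and below the oil range.

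Rhd fell by 0.50 on the log2 scale (SE 0.088, 95% interval -0.70 to -0.30), 1.41-fold higher in oil, with an adjusted p of 0.0399 with edgeR and 8.84e-05 with DESeq2. The call was close to the threshold. Without oil 1 the adjusted p was 0.204, without oil 3 0.181, without oil 4 0.156, without tamoxifen 1 0.121 and without tamoxifen 2 0.109, whereas without tamoxifen 4 it was 0.00143. With limma-voom it was 0.0545. The log2 fold change stayed between -0.56 and -0.44 in these fits that leave out a library.

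Kel, the Kell blood group protein, lay between 144 and 153 CPM in oil and between 126 and 137 CPM in the libraries labelled tamoxifen (-0.21, adjusted p = 0.212). Ermap, the erythroid membrane protein of the Scianna blood group, lay at 687 to 737 CPM against 560 to 678 CPM (-0.19, adjusted p = 0.291). The groups of both were apart by small margins. The skeleton genes Ank1 (ankyrin) and Sptb (beta spectrin) overlapped between groups at -0.19 (adjusted p = 0.406) and -0.28 (adjusted p = 0.233), as did Gypc, glycophorin C, at -0.05 (adjusted p = 0.747) and Epb42, protein 4.2, at -0.34 (adjusted p = 0.375).

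Slc4a1, the band 3 anion exchanger, was the most variable of the 32 genes. It was at 132, 168 and 45.2 CPM in oil and at 165, 91 and 27 CPM in the libraries labelled tamoxifen. The highest library was 3.72 times the lowest in oil and 6.12 times in tamoxifen, with oil 4 and tamoxifen 4 the lowest of their groups. Its log2 fold change of -0.29 had a 95% interval of -1.73 to 1.16 (adjusted p = 0.807). Tspo2, an erythroid relative of the translocator protein, was at 14.2, 16.7 and 16.8 CPM against 21.7, 33 and 14 CPM. Its groups overlapped through tamoxifen 4 (0.53, SE 0.277, adjusted p = 0.312), and without that library the value was 0.78 (adjusted p = 0.00693).

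The carbonic anhydrases, which interconvert carbon dioxide and bicarbonate, had log2 fold changes of opposite sign. Car2 (chr3:14886273-14900770, plus strand) was at 1333, 1126 and 1083 CPM in oil and at 774, 612 and 979 CPM in the libraries labelled tamoxifen, or 1181 ± 134 against 789 ± 184 (SD, n = 3 each). The groups did not overlap, and the difference of -0.58 (SE 0.171, 95% interval -0.98 to -0.19, 1.5-fold higher in oil) had an adjusted p of 0.129 with edgeR and 0.0213 with DESeq2. Car1 (chr3:14766216-14808368, minus strand) was at 1661, 1815 and 1994 CPM in oil and at 2027, 1998 and 2007 CPM in the other group. Its groups were apart by a small margin, between oil 4 and tamoxifen 2 (0.14, adjusted p = 0.416). The difference between both genes' changes was not tested.

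Of the 4 platelet genes, 3 were near the limit of detection. Pf4, platelet factor 4, had no count in 5 libraries and 9 counts in tamoxifen 2, and a count of 0 allows up to 3 counts, or 0.145 to 0.169 CPM in these 5 libraries (counting error only). Gp1bb and Gp9, subunits of the von Willebrand factor receptor of platelets, had at most 2 and 8.5 counts in any library. Exons of Gp1bb overlap those of Sept5 and Gm49601 on the same strand. Its low count may therefore depend on how shared reads were counted, which was not tested. Vwf, von Willebrand factor (chr6:125546774-125686679, plus strand), was the 1 platelet gene tested, at 12.8, 12.2 and 11.7 CPM in oil and at 14.1, 18.5 and 15.8 CPM in the libraries labelled tamoxifen. All 3 of the latter were higher, at 0.40 (SE 0.147, 95% interval 0.06 to 0.74), with an adjusted p of 0.2 with edgeR and 0.142 with DESeq2.

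The genes fell into different orders across the 6 libraries. Oil 3, tamoxifen 1 and tamoxifen 2 were above the other 3 libraries in 5 of the 32 genes, the 4 globins and Alas2 (15.6%, against 11.3% of all tested genes). This order is that of the globins themselves, and 4 of the 5 genes are globin copies, which are not independent measurements. The share is near that of all genes and is not read as a trait of the 32. Tamoxifen 4 was the lowest of the 6 libraries in 15 of the 32 (46.9%, against 16.8% of all). It was closer to the oil mean than both other libraries of its group in 12 of the 32 (37.5%, against 58% of all), and in 5 of the 12 genes that were lower in every library labelled tamoxifen. Within the oil group the median ratio of the highest to the lowest library was 1.18 for the 32 genes and 1.15 for all genes. In the group labelled tamoxifen it was 1.40 and 1.31, and 15 of the 32 genes varied by over 1.5 times (31.1% of all genes).

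**Figure D4:**
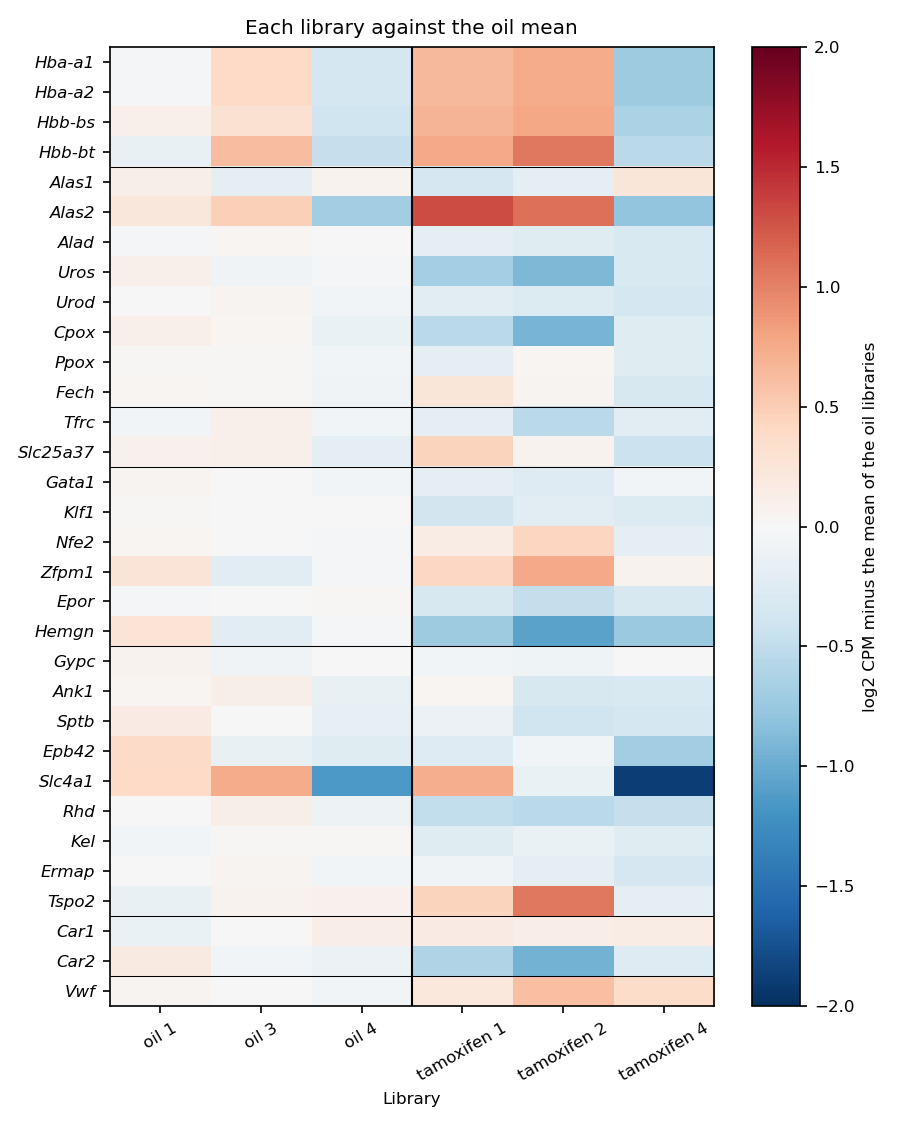
Heat map of log2 CPM minus the mean of the oil libraries for the 32 tested genes (rows, by role) in the 6 libraries (columns). Globins and Alas2 are red in tamoxifen 1 and 2 and blue in tamoxifen 4, whereas Rhd, Klf1, Epor and Hemgn are blue in all 3.

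A further 104 genes of the same pathways were read from 4 lists fixed by function, and 86 were tested. Of these, 2 were called higher and 2 lower with edgeR (1.75% and 0.267% of all tested genes). With DESeq2, 12 were higher and 10 lower (6.14% and 1.99% of all). The median log2 fold change of the 86 was 0.02. In 8 of the 25 tested genes of the heme and iron list, every library labelled tamoxifen was below the oil range (11.8% of all tested genes). With edgeR, 1 of the 25 was called higher and none lower (with DESeq2 2 higher and 5 lower, median -0.05). The gene was Hmox1, heme oxygenase, which breaks heme down, at 1.13, 1.02 and 1.39 CPM in oil and at 8.23, 9.56 and 2.76 CPM in the libraries labelled tamoxifen. All 3 of the latter were above the oil range, tamoxifen 4 by the least, and Hmox1 rose by 2.53 on the log2 scale (SE 0.468, adjusted p = 0.0426).

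In the list of other erythroid genes, 1 of 27 tested genes was called lower and none higher (with DESeq2 3 higher and 3 lower, median 0.02). Over all tested genes, edgeR called 0.267% lower and 1.75% higher, and DESeq2 1.99% lower and 6.14% higher. Among the regulators, 1 of 20 was called lower and none higher (with DESeq2 2 higher and 2 lower, median 0.01). This was E2f2, a cell cycle regulator of erythroid precursors, at 117, 106 and 93.5 CPM against 72.8, 68.8 and 71.5 CPM (-0.57, SE 0.101, adjusted p = 0.0399). The groups of E2f2 did not overlap. Tal1, a partner of Gata1, was at 420.0 to 453 CPM against 422 to 453 CPM (0.01, SE 0.0818, adjusted p = 0.966). Gfi1b, a transcriptional repressor that acts within both lineages, was at 121 to 124 CPM against 118 to 140 CPM (0.04, SE 0.092, adjusted p = 0.805).

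Of 14 tested genes in the megakaryocyte and platelet list, edgeR called 1 higher and none lower (1.75% and 0.267% of all tested genes). DESeq2 called 5 higher and none lower (6.14% and 1.99%), and the median log2 fold change was 0.55. At an unadjusted edgeR p under 0.05, 8 were higher and none lower (12.6% and 7.99%). In 6 of the 14 every library labelled tamoxifen was above the oil range, and in 1 every one was below (13.3% and 11.8%). Itga2b, the alpha chain of the platelet fibrinogen receptor, was at 4.84, 4.75 and 5.71 CPM in oil and at 24.8, 51 and 11.7 CPM in the libraries labelled tamoxifen. It rose by 2.51 on the log2 scale (SE 0.478, adjusted p = 0.0435), and every library labelled tamoxifen was above the oil range. Gp1ba and Gp5, further subunits of the receptor to which Gp1bb and Gp9 belong, were singled out after their values were seen, with 50.7 to 54.2 CPM and 274 to 318 CPM over the 6 libraries (0.06, adjusted p = 0.66, and 0.01, adjusted p = 0.938). The calls of Hmox1, E2f2 and Itga2b were lost when any 1 library other than tamoxifen 4 was left out.

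**Figure D5:**
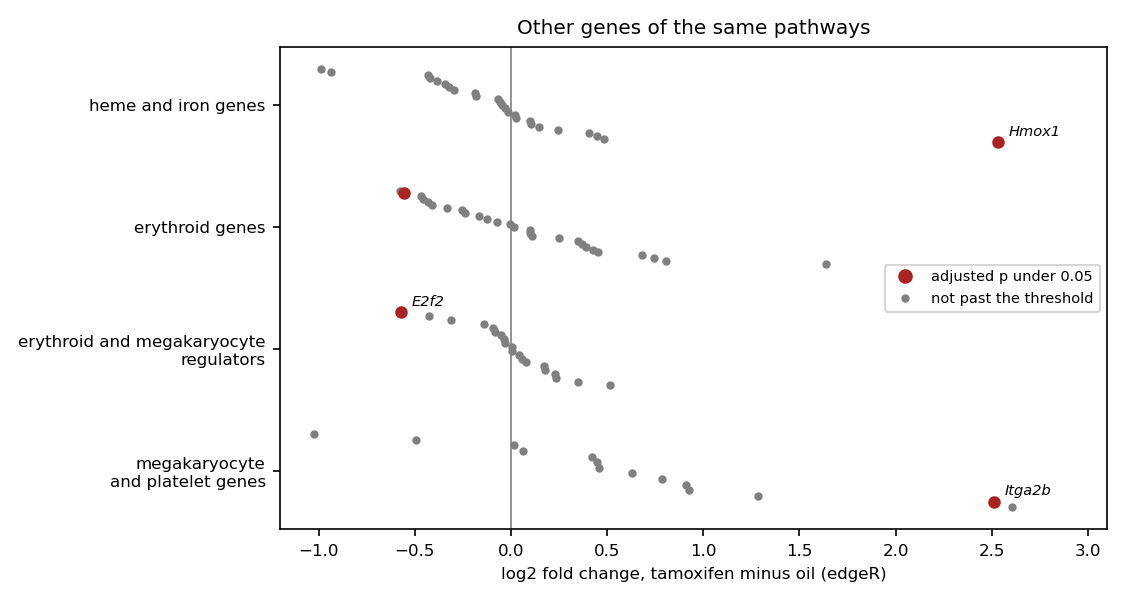
log2 fold change (tamoxifen minus oil) of the 86 tested genes of the 4 other lists, 1 point a gene, with genes past an adjusted p of 0.05 in red. Hmox1 and Itga2b lie at 2.53 and 2.51, and E2f2 at -0.57.

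Markers of other cells moved with the groups in part. The summed level of 12 mast cell and basophil genes was 3022 to 3228 CPM in oil and 3730 to 7622 CPM in the libraries labelled tamoxifen, and 2 of the 12 were called higher with edgeR and 7 with DESeq2 (1.75% and 6.14% of all tested genes). In 7 of the 12 the unadjusted p was under 0.05 with higher values (12.6% of all), and in 7 every library labelled tamoxifen was above the oil range (13.3% of all). Gata1, Gata2 and other genes of the erythroid and megakaryocyte lineages are also expressed by mast cells. The 8 progenitor and leukemia cell genes summed to 449 to 465 CPM in oil and 493 to 923 CPM in tamoxifen. Only 4 of them were tested, with 1 called higher with edgeR, Cd34 (3.27, adjusted p = 0.0232), and 2 with DESeq2 (1.75% and 6.14% of all). Mpo, Elane and Cebpa were at or near 0. The 9 macrophage genes summed to 4.22 to 8.33 CPM against 7.18 to 13.8 CPM, and none was called higher or lower with edgeR (2 higher at an unadjusted p under 0.05, 1 higher with DESeq2). The 6 B cell genes summed to at most 0.878 CPM, the 9 T and NK cell genes to at most 3.3 CPM and the 7 neutrophil genes to at most 0.59 CPM. The part of these differences in the values of the erythroid genes was not tested.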

How the data were processed

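RNA-seq libraries from 6 mice, 3 given oil and 3 tamoxifen, were analysed. Per the labels and the study's methods, reads were aligned to mm10 with STAR and compared with DESeq2. The counting program, the annotation and the strand setting are not given in the sources used here. The authors deposited 1 table of estimated counts per gene, in steps of 0.5, not normalized, which was rounded to whole numbers here. Of all values, zeros included, 25.9% to 27.4% per library were not whole. No column was left out. The numbers in 2 sample titles differ from those in the column names, and these 2 columns were used as replicates of the group they name.

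Genes passing filterByExpr by group were tested with edgeR (version 4.0.16) by TMM scaling, glmQLFit and glmQLFTest, without a block, and p-values were adjusted by Benjamini-Hochberg over all 11614 genes, with a threshold of 0.05. DESeq2 (1.42.0), limma-voom (limma 3.58.1), other scalings and filters, unrounded values, a replicate block and leaving out each library were alternatives. SE is the absolute log2 fold change divided by the root of F. Each script was tested on simulated data. P-values measure the spread between these 3 mice a group. The labels put all 6 libraries in the same batch, batch 2.

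The genes, lists and tests were chosen with earlier results of these data known. Library values are given for genes called by edgeR or DESeq2, for the 2 genes of each role with the largest change, and for Hba-a1, Hba-a2, Hbb-bs, Hbb-bt, Alas1, Alas2, Gata1, Klf1, Epor, Tfrc, Pf4 and Vwf; from other lists, called genes and Hmox1, Tal1, Gfi1b and Itga2b, while some genes that the rule would name, 1 of them called lower, are counted but not reported here; values of Alad, Urod, Slc25a37 and Car1 complete their roles. Gene coordinates and exon lengths are from GENCODE M21 (GRCm38), and promoter windows from RefSeq (GRCm38.p6). Exons of Alas2, Ank1, Cpox, Ppox and Sptb overlap those of another gene of the table on the opposite strand (Apex2, Gm15816, Gpr15, B4galt3 and Plekhg3), and reads of both may be mixed.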

Additional observations from a re-analysis of the deposited data

How the results depend on the processing

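Of the 32 tested genes, 27 kept the direction of their log2 fold change in all 14 alternatives; the cause of the differences below was not tested. The count of the 32 genes called lower, 1, became 2 without a low-count filter, 2 on unrounded values, 8 with DESeq2, 0 with limma-voom and 0 to 11 with 1 library left out, and the count called higher, 0, became 0 to 8. Non-overlapping groups with higher values, 2, became 1 without a filter and 1 on unrounded values, and 1 to 11 with 1 library left out. For the other pathway genes, 2 called higher became 5 without a filter, 0 with a mean of at least 50 counts, 12 with DESeq2, 0 with limma-voom and 0 to 30 with 1 library left out; 2 called lower became 5, 10 with DESeq2, 0 with limma-voom and 0 to 20. Over all genes, 203 called higher became 372 without a filter, 120 with a mean of at least 50 counts, 713 with DESeq2, 48 with limma-voom and 8 to 2278 with 1 library left out, and 31 called lower became 61, 17, 231, 6 and 0 to 2024.

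With the replicate number as a block, 0 of the 32 genes and 1 other pathway gene were called lower, and Rhd was at -0.42 (adjusted p = 0.33, edgeR). In this fit only libraries whose number occurs in both groups, 1 and 4, inform the group difference. Oil 3 and tamoxifen 2 each stand alone in a block and do not. The pairing could be looked at for the numbers 1 and 4, which both groups use. Deviations from the group means correlated at -0.127 and 0.0616 between libraries of equal number. So few values cannot show whether such libraries share more than the number. With 1 library left out, Alas1 ranged from -0.28 to 0.032, Fech up to 0.15, Slc25a37 to 0.27, Nfe2 to 0.30, Tal1 to 0.043 and Gfi1b to 0.086, and Slc4a1 down to -0.97. Signs turned for genes with small or variable changes: Fech with limma-voom (-0.0059), with the block (-0.025), and without oil 4 (-0.024), tamoxifen 1 (-0.12) or tamoxifen 2 (-0.0053); Alas1 without tamoxifen 1 (0.032); Slc25a37 without oil 4 (-0.026) or tamoxifen 1 (-0.16); Nfe2 with the block (-0.016) or without tamoxifen 2 (-0.0059); Slc4a1 without oil 3 (0.08) or tamoxifen 4 (0.16); Tal1 without a filter (-0.00086), with the block (-0.043), and without oil 3 (-0.015), oil 4 (-0.016) or tamoxifen 2 (-0.024); and Gfi1b with the block (-0.040) or without tamoxifen 2 (-0.037).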
